A study of Rattus norvegicus with 9 samples.

Results

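Bone libraries that held much skeletal muscle RNA were set against bone libraries that held little. The 2 classes were chosen by the measured level of Acta1, the gene of skeletal muscle alpha-actin, in CPM (the count of a gene divided by the library's total count, times 1000000). Of 9 libraries, the 4 above 600 CPM of Acta1 (Sham-1, Sham-2, OVX-1 and OVX-AS-IV-High-1) are called muscle-rich and the other 5 (Sham-3, OVX-2, OVX-3, OVX-AS-IV-High-2 and OVX-AS-IV-High-3) muscle-poor. Because a measured value chose the classes, every difference between them is given as a description with no test. The classes are not groups of the study.

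The study asked how astragaloside IV (AS-IV), a saponin of Astragalus root, acts on the bone of rats without ovaries, a model of bone loss after menopause. RNA was sequenced from frozen femurs of female Sprague-Dawley rats bought at 8 weeks of age and kept for 1 week before surgery. There were 3 groups of 3 libraries, each library from a separate rat. Treatment by daily gavage began 6 weeks after surgery and lasted 8 weeks. Sham rats had fat removed in place of the ovaries and received the vehicle CMC-Na (sodium carboxymethyl cellulose), which the labels give as 1%, 2% and 3% for replicates 1, 2 and 3. The study's methods give Sham and OVX rats the same vehicle, so whether its strength varied within Sham is uncertain. OVX rats had both ovaries removed and received 1% CMC-Na. OVX-AS-IV-High rats had both ovaries removed and received AS-IV at 80 mg/kg, which the study's methods prepare in 1% CMC-Na. Total counts lay between 34874880 and 37298250 per library, so a count of 0 allows up to 0.0860 CPM (3 counts) in the library with the fewest counts, for counting error only.

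Skeletal muscle lies directly on the femur and is joined to it by tendons and periosteum, the fibrous sheath of bone. Its fibers fall into slow fibers, which are oxidative and carry the myosin heavy chain Myh7, and fast fibers, which carry Myh2, Myh1 or Myh4. Bone itself holds matrix-forming osteoblasts, matrix-bound osteocytes, bone-resorbing osteoclasts, growth plate and joint cartilage, and marrow with blood-forming, fat, vessel and nerve cells.

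Muscle-rich libraries fell unevenly over the groups. Sham held 2 muscle-rich libraries and 1 muscle-poor library, while OVX and OVX-AS-IV-High each held 1 muscle-rich library and 2 muscle-poor libraries. All 3 libraries numbered 1 were muscle-rich and all 3 numbered 3 were muscle-poor, so muscle class and replicate number could be told apart only in the libraries numbered 2.

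Acta1 (gene ID 29437), which chose the classes, had 2650, 2205 and 365 CPM in Sham-1, Sham-2 and Sham-3, 799, 387 and 346 CPM in OVX-1, OVX-2 and OVX-3, and 1390, 431 and 137 CPM in OVX-AS-IV-High-1, OVX-AS-IV-High-2 and OVX-AS-IV-High-3. Just inside the threshold stood OVX-1 with 799 CPM, and just outside it OVX-AS-IV-High-2 with 431 CPM. The class name was checked against Ckm and Mb, muscle markers that the threshold did not use. Ckm (gene ID 24265), the muscle form of creatine kinase, had 1347, 788, 447 and 667 CPM in the muscle-rich libraries Sham-1, Sham-2, OVX-1 and OVX-AS-IV-High-1. In the muscle-poor libraries Sham-3, OVX-2, OVX-3, OVX-AS-IV-High-2 and OVX-AS-IV-High-3 it had 256, 305, 216, 304 and 70.3 CPM. Mb (gene ID 59108), the oxygen-binding protein myoglobin, had 666, 832, 348 and 528 CPM in the same order of muscle-rich libraries and 72.3, 92.3, 89.9, 120 and 40.3 CPM in the same order of muscle-poor libraries. Neither Ckm nor Mb overlapped between the classes. Sham-1 and Sham-2 stood highest and OVX-AS-IV-High-3 lowest in all 3 markers.

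**Figure D1:**
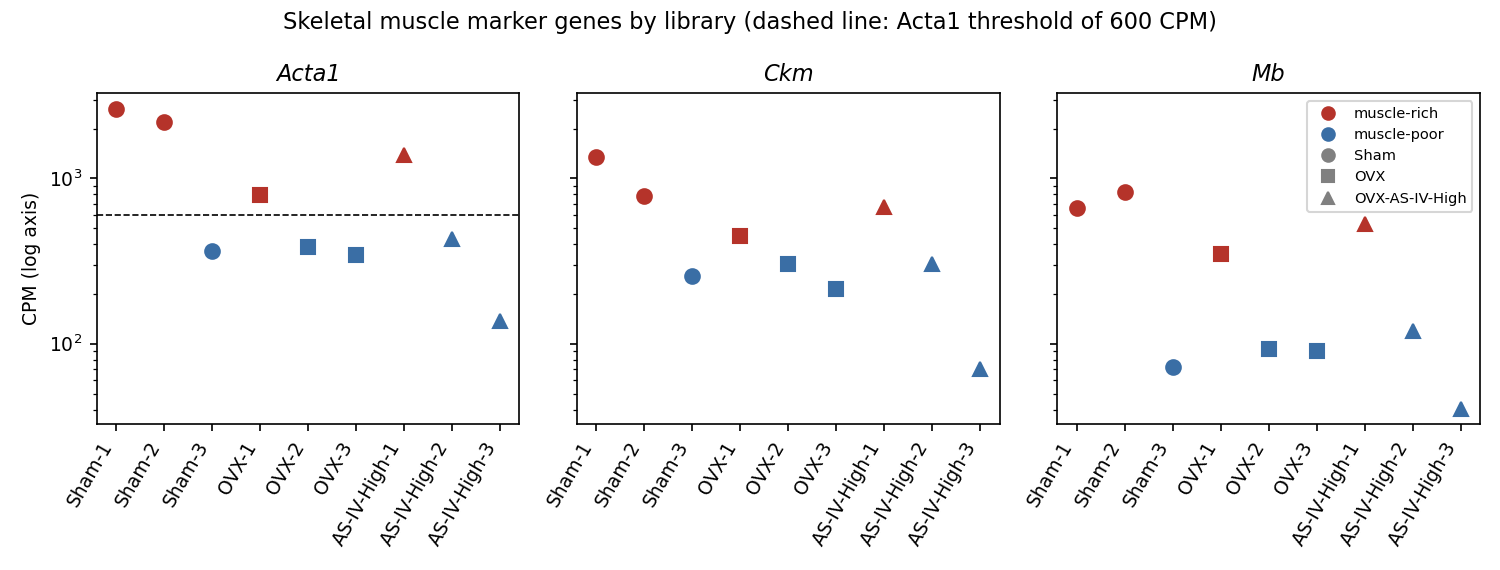
CPM of Acta1, Ckm and Mb on a log axis in each of the 9 libraries, with 1 point per library, colored by muscle class and shaped by treatment group. The dashed line is the Acta1 threshold of 600 CPM, and OVX-1 at 799 and OVX-AS-IV-High-2 at 431 are the libraries nearest to it.

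The 49 genes of the skeletal muscle fiber list, which code for sarcomere, calcium-handling and other fiber proteins and include Acta1, Ckm and Mb, together took 1.99%, 1.57%, 0.755% and 1.04% of all counts in Sham-1, Sham-2, OVX-1 and OVX-AS-IV-High-1. They took 0.330%, 0.383%, 0.330%, 0.425% and 0.132% in Sham-3, OVX-2, OVX-3, OVX-AS-IV-High-2 and OVX-AS-IV-High-3. Muscle RNA was thus present in all 9 libraries, and the classes differ in its amount. In bulk tissue, fewer cells of a type and less RNA per cell cannot be told apart. Of 16874 genes with enough counts to be tested, 887 (5.26%) were higher in every muscle-rich than in every muscle-poor library and 582 (3.45%) were lower. These shares follow in part from the choice of libraries, and nothing is read from them. All 49 fiber genes passed the filter on low counts. Of them, 47 were higher without overlap, with a median difference of 2.29 in mean log2(CPM + 0.5), against -0.02 over all genes tested. The 47 include Acta1, whose separation the threshold fixed, and Ckm and Mb, and the 2 that overlapped were Myh4 and Mylk2.

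The start of the Acta1 gene is shown because this gene chose the classes. The sequence runs from 250 bases before to 50 bases after the start, on the minus strand of RefSeq's GRCr8 build at chr19:68784145-68784444, and its CArG box, a motif bound by serum response factor, is in capitals. The promoter of Ckm, at chr1:88189211-88189510 on the plus strand, is shown with its 3 E-boxes (CANNTG, the letters bound by MyoD and related muscle factors) in capitals.
Acta1: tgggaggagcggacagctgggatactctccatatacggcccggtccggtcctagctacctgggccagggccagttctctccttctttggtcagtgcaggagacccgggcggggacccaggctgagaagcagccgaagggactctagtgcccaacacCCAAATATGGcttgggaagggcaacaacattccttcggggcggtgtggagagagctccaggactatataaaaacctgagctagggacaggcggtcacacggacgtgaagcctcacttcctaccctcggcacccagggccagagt
Ckm: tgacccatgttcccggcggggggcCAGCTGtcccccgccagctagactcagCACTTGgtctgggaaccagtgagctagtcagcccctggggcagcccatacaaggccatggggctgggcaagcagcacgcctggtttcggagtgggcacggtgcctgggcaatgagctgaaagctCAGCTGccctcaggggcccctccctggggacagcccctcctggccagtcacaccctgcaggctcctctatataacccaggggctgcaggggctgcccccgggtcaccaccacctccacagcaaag
Both strands were searched. A CArG box was found in 548 of 33469 promoters of this length (1.64%) and in 4 of the 38 fiber genes with a promoter in the table (Acta1, Myl3, Myh4 and Ldb3, named after the search). A MEF2 box, another motif known from muscle genes, was found in 1100 of all promoters (3.29%) and in 8 of the 38. An E-box was found in 24131 of all promoters (72.1%) and in 33 of the 38, so it is common to most genes. A match describes letters only.

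The 4 fiber genes with the largest difference all belong to slow fibers. Myh7 had 322, 729, 130 and 271 CPM in Sham-1, Sham-2, OVX-1 and OVX-AS-IV-High-1 and 4.06, 2.66, 13.7, 21.4 and 24.1 CPM in Sham-3, OVX-2, OVX-3, OVX-AS-IV-High-2 and OVX-AS-IV-High-3. Its log2 difference was 4.89, and those of Myl2, Myl3 (slow myosin light chains) and Tnni1 (slow troponin I) were 4.56, 4.46 and 4.25. Myh4, of the fastest fibers, had 1511, 686, 571 and 456 CPM against 278, 517, 378, 482 and 126 CPM in the same orders, a difference of 1.17 in which OVX-AS-IV-High-1 lay below OVX-2 and OVX-AS-IV-High-2. Grouped after their values were seen, 6 slow-fiber genes differed by a median of 4.35 and 12 fast-fiber genes by a median of 1.56. The ranges overlapped, with 2.70 to 4.89 for slow-fiber and 1.17 to 4.03 for fast-fiber genes.

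Per unit of length, in FPKM (fragments scaled to transcript length and to library depth), Myh7 made up 11.0%, 35.3%, 11.8% and 20.4% of the summed level of Myh7, Myh2, Myh1 and Myh4 in Sham-1, Sham-2, OVX-1 and OVX-AS-IV-High-1. In the muscle-poor libraries it made up 0.852%, 0.400%, 2.73% and 3.27% in Sham-3, OVX-2, OVX-3 and OVX-AS-IV-High-2, but 13.6% in OVX-AS-IV-High-3, the library with the least muscle RNA. The slow share therefore overlapped between the classes. The share of Myh2, a fast-fiber gene, did not overlap, with 9.23% to 10.9% in muscle-rich and 0.654% to 4.08% in muscle-poor libraries. The myosin heavy chain genes lie in a family of similar sequences, and the split of reads between them is uncertain.

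**Figure D2:**
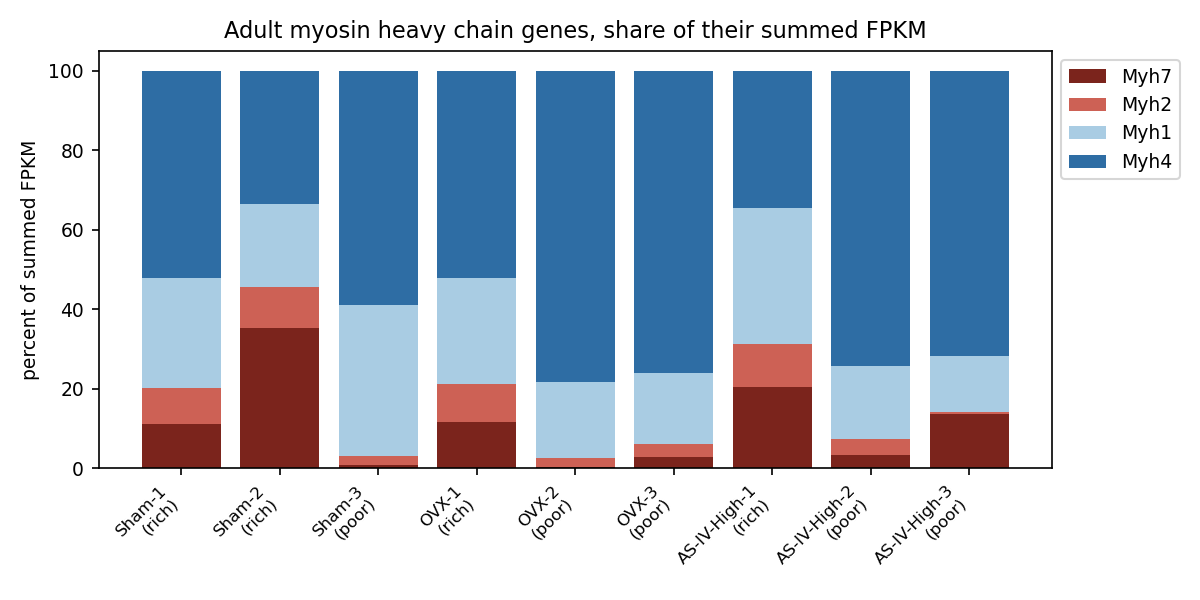
Share of the summed FPKM of 4 adult myosin heavy chain genes in each library, with muscle class in parentheses and 1 bar per library. Myh7, of slow fibers, takes 35.3% in Sham-2 and 0.400% in OVX-2, and OVX-AS-IV-High-3 is the muscle-poor library with a slow share of 13.6%.

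Among the 23 genes of muscle metabolism, 19 were higher in muscle-rich libraries without overlap and the median difference was 1.58. Fabp3, a fatty acid carrier, differed by 3.23, Hspb7 by 3.27, Cryab, a small heat shock protein, by 2.85 and Ckmt2, the mitochondrial creatine kinase, by 2.75. Car3 was the most abundant gene of this list, and its classes overlapped. Aldoa and Cox7a1, which muscle is known to express strongly, had at most 1.65 and 0.754 CPM in any library, so their deposited levels are uncertain, since reads shared with near-identical copies can be assigned elsewhere. Of 13 regulators of muscle formation and satellite cells, 11 passed the filter and 4 were higher without overlap, among them Myog with 2.74, 3.67, 1.21 and 1.82 CPM in the muscle-rich libraries and at most 0.706 CPM in the others. Cdh15, the M-cadherin of satellite cells, went the other way, with 7.21 to 11.2 CPM in muscle-rich and 13.5 to 19.7 CPM in muscle-poor libraries. Oxidative phosphorylation genes, which every cell uses, had a median difference of 0.06, with 1 of 22 (Cox5a) higher without overlap. The share over all genes tested was 5.26%.

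Outside contractile genes, 158 of 15273 genes tested (1.03%) were higher in muscle-rich libraries by more than 1 on the log2 scale without overlap, and 40 (0.262%) were lower by more than 1 without overlap. Contractile genes are here the 3 muscle lists and every gene whose deposited gene ontology terms name muscle structures or processes. Within each of Sham, OVX and OVX-AS-IV-High, all 158 were on average higher and all 40 on average lower in the muscle-rich libraries, which follows from the lack of overlap. Lowly expressed genes made up much of both sets, with a median of the mean level of 2.75 CPM in the higher and 4.04 CPM in the lower set, against 18.9 CPM over all genes tested. Without OVX-1, the muscle-rich library nearest to the threshold, 223 genes were higher and 95 lower.

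Genes outside contractile genes were ranked among those with a mean of at least 10 CPM, no overlap and the same direction in every treatment group. The 10 with the largest higher level were Kera, Txlnb, Eef1a2, Usp13, Art1, Klhl31, Ptpn3, Hjv, Cmya5 and Hspb8. Their log2 differences ran from 2.92 for Kera down to 1.94 for Hspb8. Several of them are known muscle genes that their gene ontology terms did not mark. Eef1a2, the translation elongation factor of muscle and neurons, had 121, 84.4, 39.5 and 58.8 CPM in Sham-1, Sham-2, OVX-1 and OVX-AS-IV-High-1 and 15.5, 17.6, 12.0, 17.9 and 5.06 CPM in Sham-3, OVX-2, OVX-3, OVX-AS-IV-High-2 and OVX-AS-IV-High-3. Hjv, the iron regulator hemojuvelin made in muscle and liver, differed by 2.10, and Cmya5, the muscle protein myospryn, by 2.03. Txlnb, a muscle taxilin, differed by 2.51.

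Of 20 genes of tendon, periosteum and fibrous tissue, 4 (Kera, Tnmd, Scx and Mkx) were higher and 1 (Col12a1, by -0.90) lower without overlap in muscle-rich libraries. Over all genes tested, 5.26% were higher and 3.45% lower without overlap. The median of the list was 0.19, and 8 of its genes had a negative difference. The median was 0.00 among Sham, 0.56 among OVX and -0.44 among OVX-AS-IV-High libraries. Its summed level, led by Fn1, overlapped, with means of 3436 CPM in muscle-rich and 4163 CPM in muscle-poor libraries. Kera, the proteoglycan keratocan, had 20.9, 15.0, 34.1 and 12.7 CPM in Sham-1, Sham-2, OVX-1 and OVX-AS-IV-High-1 and 5.54, 1.52, 0.924, 4.12 and 1.02 CPM in Sham-3, OVX-2, OVX-3, OVX-AS-IV-High-2 and OVX-AS-IV-High-3. Tnmd, the tendon membrane protein tenomodulin, had 17.3, 12.4, 25.7 and 9.89 CPM against 5.51, 2.14, 0.707, 3.77 and 1.13 CPM in the same orders. OVX-1 was highest in both, although it held the least Acta1 of the muscle-rich libraries. Scx, the transcription factor scleraxis of tendon progenitors, differed by 1.14. Prg4, the lubricin of joint surfaces, was 1719, 596, 432 and 853 CPM in the muscle-rich libraries and 231, 369, 268, 270 and 213 CPM in the muscle-poor ones, a difference of 1.56.

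Of 19 cartilage genes, 3 (Col9a1, Col11a1 and Cnmd) were lower and 1 (Prg4) higher in muscle-rich libraries without overlap. The shares over all genes tested were 3.45% lower and 5.26% higher. The median of the list was -1.02, and 5 of its genes had a positive difference. The median was -0.70 among Sham, -2.08 among OVX and -0.82 among OVX-AS-IV-High libraries. Col9a1, a chain of type IX collagen, had 22.3, 10.8, 1.93 and 9.52 CPM in Sham-1, Sham-2, OVX-1 and OVX-AS-IV-High-1 and 129, 26.4, 50.2, 59.8 and 57.6 CPM in Sham-3, OVX-2, OVX-3, OVX-AS-IV-High-2 and OVX-AS-IV-High-3. Its difference of -2.69 was the largest lower one among the named genes, and Cnmd, chondromodulin, followed with -2.20. Without Sham-1, 11 of the 19 were lower without overlap, as were 4.6% of all genes tested. The sum of the list, led by Col2a1, overlapped between the classes, with 5968 CPM in Sham-1 against 2776, 1712 and 2629 CPM in Sham-2, OVX-1 and OVX-AS-IV-High-1 and 3092 to 5354 CPM in the muscle-poor libraries.

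**Figure D3:**
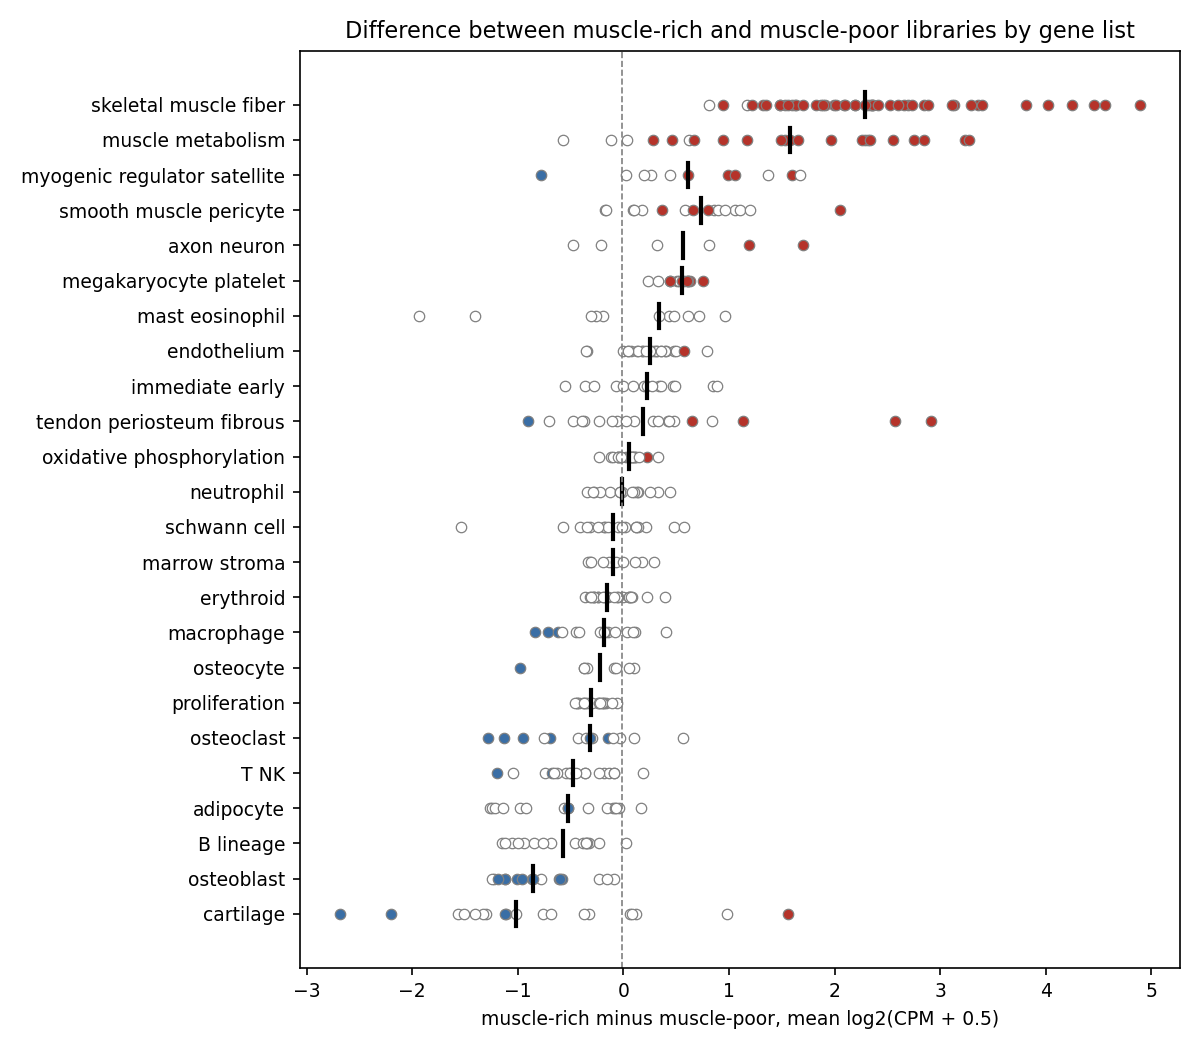
Difference between muscle-rich and muscle-poor libraries in mean log2(CPM + 0.5) for each gene of 24 lists, with 1 circle per gene, filled red or blue where the classes did not overlap. Black bars are list medians and the dashed line is the median over all genes tested, -0.02. Muscle lists lie to the right, and the osteoblast and cartilage medians of -0.86 and -1.02 to the left.

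Bone-forming genes were lower on average in muscle-rich libraries, with overlap in some of them. All 16 osteoblast genes had a negative difference, with a median of -0.86, and 9 were lower without overlap (among them Sp7, Alpl, Sparc, Spp1 and Bmp3). Over all genes tested, 3.45% were lower without overlap. Col1a1, the main chain of bone collagen and the most abundant gene of the list, had 2145, 2787, 5841 and 2662 CPM in Sham-1, Sham-2, OVX-1 and OVX-AS-IV-High-1 and 7139, 9296, 7896, 7630 and 5010 CPM in Sham-3, OVX-2, OVX-3, OVX-AS-IV-High-2 and OVX-AS-IV-High-3. OVX-1 lay above OVX-AS-IV-High-3, so Col1a1 overlapped, as did Col1a2 with -1.25 and Bglap, osteocalcin, with -1.12. Bmp3, a growth factor made by bone cells, had 1.90, 2.84, 4.03 and 1.69 CPM in muscle-rich libraries and 4.59, 6.79, 9.38, 6.64 and 5.15 CPM in muscle-poor libraries in the same orders. The summed list was 7839, 8947, 14608 and 7534 CPM in muscle-rich libraries and 13996 to 24192 CPM in muscle-poor libraries. OVX-1 lay above the lowest muscle-poor library, so the sums overlapped. Within the treatment groups, the median of the list was -0.77 among Sham libraries, -0.66 among OVX libraries and -0.96 among OVX-AS-IV-High libraries. Among 8 osteocyte genes only Phex, an endopeptidase of phosphate control, was lower without overlap, by -0.98, and Dmp1, Mepe and Fgf23 overlapped.

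Of 15 osteoclast genes, 6 were lower without overlap (Nfatc1, Dcstamp, Acp5, Ctsk, Atp6v0d2 and Ostm1) and none higher, with a median of -0.32. The shares over all genes tested were 3.45% lower and 5.26% higher. Ctsk, the collagen-cutting protease cathepsin K, had 276, 578, 641 and 451 CPM in Sham-1, Sham-2, OVX-1 and OVX-AS-IV-High-1 and 997, 1201, 1316, 955 and 1225 CPM in Sham-3, OVX-2, OVX-3, OVX-AS-IV-High-2 and OVX-AS-IV-High-3, which is 2.44-fold higher in the muscle-poor libraries on the log2(CPM + 0.5) scale. Acp5, the tartrate-resistant phosphatase, had 335 ± 40.0 CPM (SD, n = 4) against 650 ± 93.3 CPM (SD, n = 5). Atp6v0d2, a proton pump subunit, differed by -1.13. Car2, the most abundant gene of this list, is also made by red cells. The summed list did not overlap, with 2481 to 3492 CPM in muscle-rich and 3766 to 4580 CPM in muscle-poor libraries.

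The lower genes were ranked under the same limits: a mean of at least 10 CPM, no overlap and the same direction in every treatment group. The 10 with the largest lower level outside contractile genes included Col9a1, Cnmd, Calml3, Ctsk, Panx3, Atp6v0d2 and Edil3. Panx3 is a channel protein of cartilage and bone cells and differed by -1.27. Calml3, a calmodulin-like protein, had 7.62, 9.58, 8.96 and 13.3 CPM in muscle-rich libraries in the order above and 22.3, 35.2, 21.2, 31.0 and 34.7 CPM in muscle-poor libraries.

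**Figure D4:**
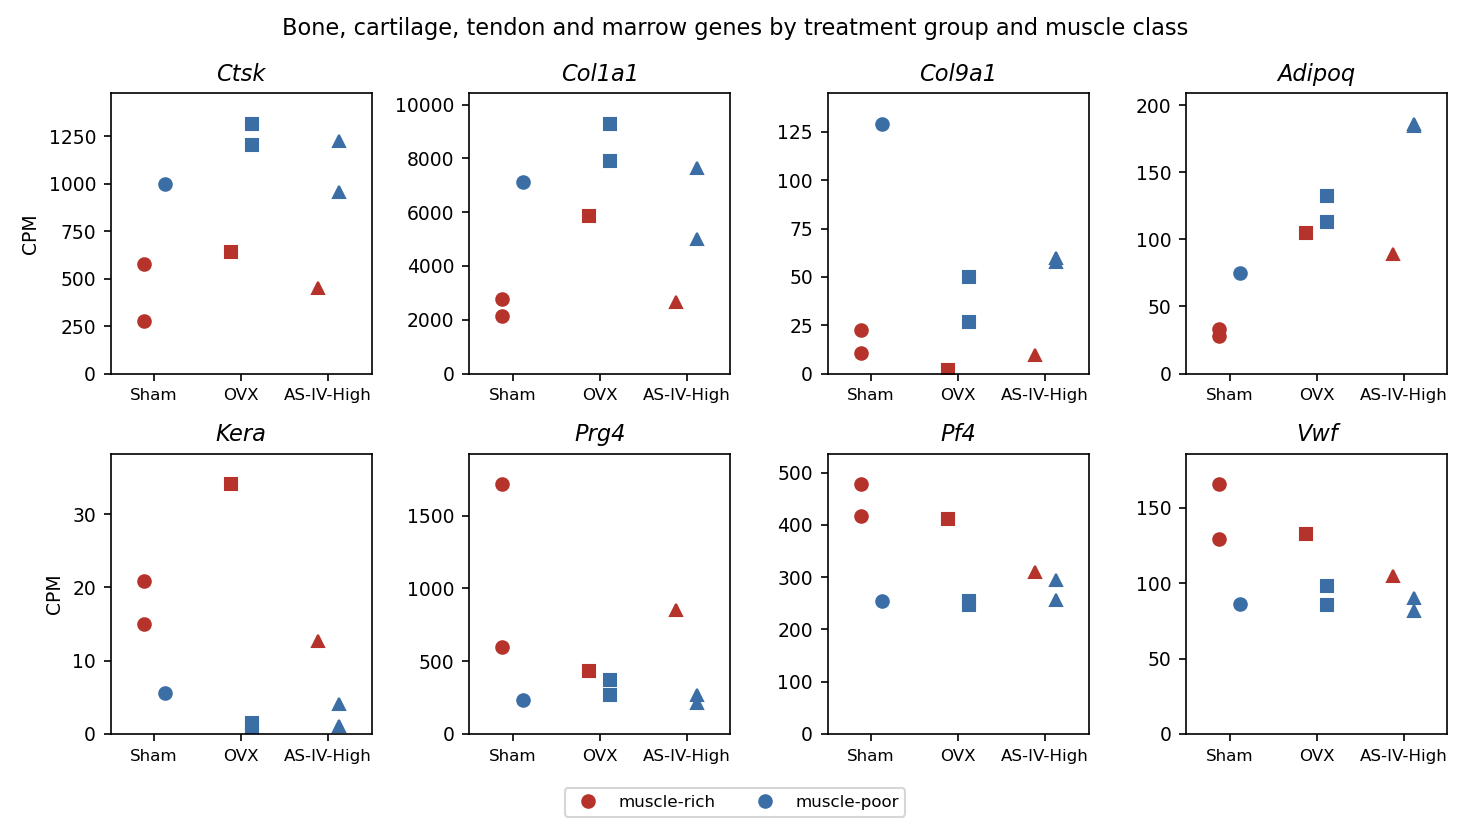
CPM of 8 bone, cartilage, fat, tendon, joint, platelet and vessel genes by treatment group, with 1 point per library colored by muscle class and axes starting at 0. In each group the muscle-rich libraries lie below the muscle-poor libraries for Ctsk and Col9a1 and above them for Kera, Prg4, Pf4 and Vwf.

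Among marrow lineages, all 13 platelet and megakaryocyte genes had a positive difference, with a median of 0.56. Of them, 9 were higher without overlap (among them Itga2b, Gp6, Pf4, Thbs1 and Tubb1), as were 5.26% of all genes tested. Pf4, the platelet chemokine, had 418, 479, 411 and 310 CPM in Sham-1, Sham-2, OVX-1 and OVX-AS-IV-High-1 and 255, 247, 255, 256 and 295 CPM in Sham-3, OVX-2, OVX-3, OVX-AS-IV-High-2 and OVX-AS-IV-High-3. Tubb1, the platelet tubulin, had 301 ± 51.5 CPM (SD, n = 4) against 176 ± 10.8 CPM (SD, n = 5). Both genes differed by under 1 on the log2 scale, with 0.61 for Pf4 and 0.75 for Tubb1. The sum of the list, led by Thbs1, was 2264 to 2892 CPM in muscle-rich and 1609 to 1842 CPM in muscle-poor libraries.

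B-lineage genes had a median of -0.57, and 15 of 16 were lower on average, but none was separated. Without OVX-1, 11 of the 16 were lower without overlap, as were 13.0% of all genes tested. Igll1, a surrogate light chain of B-cell precursors, had 18.7, 14.1, 54.0 and 23.8 CPM in Sham-1, Sham-2, OVX-1 and OVX-AS-IV-High-1 and 43.3, 59.3, 59.4, 43.2 and 64.8 CPM in Sham-3, OVX-2, OVX-3, OVX-AS-IV-High-2 and OVX-AS-IV-High-3. T and NK cell genes had a median of -0.48, with Cd4 and Prf1 lower without overlap among 18 tested. Of 15 macrophage genes, Csf1r, Cd68 and Adgre1 were lower without overlap, and the median was -0.18. With no library left out, 3.45% of all genes tested were lower without overlap. Csf1r, the receptor for macrophage colony-stimulating factor that osteoclast precursors share, had 85.8, 117, 154 and 97.9 CPM against 199, 188, 184, 162 and 177 CPM. Neutrophil genes had a median of -0.01, erythroid genes -0.15, mast cell and eosinophil genes 0.34 and proliferation genes -0.30, and no member of these lists or of the immediate early list (median 0.23) was separated. All 20 proliferation genes had a negative difference, with Pcna at -0.46. Within the treatment groups several of these medians turned sign. The proliferation median was -0.59 among Sham, 0.11 among OVX and -0.30 among OVX-AS-IV-High libraries, and in the same order that of erythroid genes was -0.59, 0.28 and -0.18. Mast cell and eosinophil genes had -0.07, 0.11 and 0.07, neutrophil genes 0.25, -0.15 and 0.21, immediate early genes 0.33, -0.31 and 0.26, and T and NK cell genes 0.01, -0.63 and -0.40. The B-lineage medians were -0.60, -0.11 and -0.54, and the macrophage medians -0.61, -0.20 and -0.06.

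Fat genes were lower on average in muscle-rich libraries. Of 16 adipocyte genes tested, 15 had a negative difference, with a median of -0.52. Only 1 (Cfd, adipsin) was lower without overlap, as were 3.45% of all genes tested. The median was -0.17 among Sham, -0.36 among OVX and -0.58 among OVX-AS-IV-High libraries. Adipoq, the hormone adiponectin, had 33.1, 27.8, 105 and 88.9 CPM in Sham-1, Sham-2, OVX-1 and OVX-AS-IV-High-1 and 74.8, 113, 133, 186 and 185 CPM in Sham-3, OVX-2, OVX-3, OVX-AS-IV-High-2 and OVX-AS-IV-High-3. In Adipoq the 3 Sham libraries were the lowest, so treatment group and muscle class both moved with it. Of 10 marrow stroma genes, Cxcl12, the chemokine that holds blood stem cells in marrow, was lower without overlap, by -0.32, and the median was -0.10. With 1 gene without overlap in each, the adipocyte and stroma lists cannot be told from that share.

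Of 25 endothelial genes, 22 had a positive difference, and the median of the list was 0.26. It was 0.36 among Sham, 0.09 among OVX and 0.04 among OVX-AS-IV-High libraries. Only 1 of the 25 was higher without overlap, as were 5.26% of all genes tested. That gene was Vwf, von Willebrand factor, which platelets carry too, with 133 ± 25.2 CPM (SD, n = 4) in muscle-rich and 88.3 ± 6.39 CPM (SD, n = 5) in muscle-poor libraries. The summed endothelial level, led by Aqp1, had means of 1542 CPM and 1536 CPM in the 2 classes and overlapped. Smooth muscle and pericyte genes had a median of 0.73 with 4 of 16 separated (Mylk, Synpo2, Rgs5 and Abcc9). Their median was 0.83 among Sham, 0.39 among OVX and 0.10 among OVX-AS-IV-High libraries. Synpo2, an actin-binding protein found in skeletal muscle too, differed by 2.05. Acta2 and Myh11, which define smooth muscle, overlapped, with differences of 1.06 and 1.10.

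Of 20 Schwann cell genes, 18 passed the filter, none was separated and the median was -0.10, with 0.09, -0.14 and -0.30 within Sham, OVX and OVX-AS-IV-High. Of 11 axon and neuron genes, 6 passed the filter, and Nefl, Nefm, Nefh, Snap25 and Th did not. Of the 6, 4 had a positive and 2 (Tubb3 and Calca) a negative difference, 2 (Prph and Uchl1) were higher without overlap, and the median was 0.57. Over all genes tested, 5.26% were higher without overlap. Prph, the intermediate filament peripherin of peripheral neurons, had 5.56, 4.04, 3.92 and 3.24 CPM in Sham-1, Sham-2, OVX-1 and OVX-AS-IV-High-1 and 1.43, 1.17, 0.734, 0.941 and 0.523 CPM in Sham-3, OVX-2, OVX-3, OVX-AS-IV-High-2 and OVX-AS-IV-High-3. Uchl1, a neuronal deubiquitinase, differed by 1.19, and both separated genes were low.

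Over all genes tested, 35.6% of the variance of log2(CPM + 0.5) lay between the 2 muscle classes and 33.3% between the 3 treatment groups, and these shares overlap because the classes fall unevenly over the groups. The 2 shares cannot be ranked, since a split into more groups takes a larger share by itself and the classes were chosen from a value in the same table. With contractile genes left out the shares were 29.3% and 34.4%. The first principal component, the axis of greatest variance, held 41.6% over all genes tested and put Sham-1 (50.4), Sham-2 (40.2), OVX-AS-IV-High-1 (21.8) and OVX-1 (4.91) on one side. Sham-3 (-14.1), OVX-AS-IV-High-2 (-18.6), OVX-2 (-23.1), OVX-3 (-25.4) and OVX-AS-IV-High-3 (-35.9) lay on the other. With contractile genes left out this component held 35.04% and OVX-1 stood at 0.22, close to the middle.

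The treatment groups were then compared by their labels, with edgeR's quasi-likelihood test on all 9 libraries, first with no covariate and then with muscle class as a term. A gene was called at an unadjusted p under 0.05 with an absolute log2 fold change over 1. OVX against Sham called 525 of 16874 genes (3.11%), 182 higher and 343 lower in OVX, and OVX-AS-IV-High against OVX called 140 (0.83%), 77 higher and 63 lower. With muscle class as a term the counts were 456 (2.7%) and 170 (1.01%). Of the 525 genes, 344 (65.5%) were also called with the term, and they made up 75.4% of the 456. Of the 140 genes, 126 (90%) were also called, 74.1% of the 170. With the log2 level of Acta1 as a term, 238 (45.3%) of the 525 and 131 (93.6%) of the 140 genes were also called. After Benjamini-Hochberg adjustment over all genes edgeR called 0 genes with no covariate in either comparison, where 2775 and 1089 genes had an unadjusted p under 0.05 and DESeq2 called 834 and 37 genes after adjustment. With muscle class as a term edgeR called 1 gene in OVX against Sham after adjustment, the chloride channel Clcn2 (log2 fold change -2.06, SE 0.17, adjusted p 0.00997, every OVX library below every Sham library), named after its values were seen. Some other fits gave more, and edgeR called 21 genes after adjustment in OVX against Sham without Sham-3, 21 with the replicate number as a block and 7 in the muscle-poor libraries alone. In OVX-AS-IV-High against OVX it called 29 without OVX-AS-IV-High-3. In the other edgeR alternatives it called at most 2. The biological coefficient of variation, edgeR's measure of spread between libraries, was 0.256 with no covariate and 0.199 with the term.

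In edgeR with no covariate, Acta1, Ckm and Mb were not called between treatment groups. Acta1 had a log2 fold change of -1.79 (SE 0.87) in OVX against Sham and 0.40 (SE 0.84) in OVX-AS-IV-High against OVX, with edgeR adjusted p of 0.335 and 0.971. Ckm had -1.32 (SE 0.76) and 0.15 (SE 0.74), and Mb -1.59 (SE 1.05) and 0.43 (SE 1.03). The fiber list had a median log2 fold change of -1.53 in OVX against Sham, against -0.01 over all genes tested, with 1 member (Mylk2) called lower. Over all genes tested, 343 were called lower in that fit. Without Sham-3, 30 members and 716 of all genes were called lower, and without OVX-1 19 members and 528 genes. Without OVX-AS-IV-High-1 the counts were 13 and 415, without OVX-AS-IV-High-3 10 and 374, and without Sham-1 0 and 253. They were 22 and 509 with the replicate number as a block, 6 and 395 with DESeq2, and 6 and 512 with no filter on low counts, where 23026 genes were tested. Acta1 was itself called lower in OVX without Sham-3 (-2.27), with the block (-1.42), with DESeq2 (-1.80) and with no filter (-1.80), and without OVX-AS-IV-High-1 or OVX-AS-IV-High-3 (both -1.79). Ckm was called lower without Sham-3 (-1.74), with the block (-1.02) and without OVX-AS-IV-High-3 (-1.32). The list's median was -0.62 with muscle class as a term. Acta1, a member of the list, set that class, so nothing is read from the smaller fall. These comparisons share the OVX libraries.

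Some lists outside muscle had other counts with the muscle term. Of 19 cartilage genes, 0 were called in OVX against Sham with no covariate, while 8 were called lower in OVX with muscle class as a term (Acan, Col2a1, Col9a1, Col9a2, Col9a3, Matn3, Hapln1 and Cnmd). The median log2 fold change of the list was -0.59 with no covariate and -1.09 with the term. Col9a1 had a log2 fold change of -2.13 (SE 0.41) with the term, and its edgeR adjusted p of 0.0825 was above 0.05. Over all genes tested, 343 were called lower with no covariate and 299 with the term. Without OVX-3, 4 of the 19 and 271 of all genes were called lower with no covariate, and without Sham-3 2 of the 19 and 716 of all genes. With the log2 level of Acta1 as a term 4 of the 19 and 193 of all genes were called lower, and in the muscle-poor libraries alone 4 and 185. In the other alternatives 0 or 1 of the 19 were. Of 16 adipocyte genes, 7 were called higher in OVX with no covariate (Adipoq, Plin1, Cidec, Cidea, Lep, Retn and Thrsp) and 5 with the term, but 3 without OVX-2 and 2 with the log2 level of Acta1 as a term. Over all genes 182, 157, 127 and 183 were called higher in these 4 fits. Of 16 smooth muscle and pericyte genes, 7 were called lower in OVX with no covariate, 6 with the term, 1 with the log2 level of Acta1 as a term and 0 in the muscle-poor libraries alone, where Sham is a single library. With the replicate number as a block, edgeR called Acta2, Myh11 and Tagln of this list in OVX against Sham after adjustment. Among 16 osteoblast genes Bglap was called higher in OVX with no covariate and no gene was called with the term. Among 15 osteoclast genes none was called in either fit. Without Sham-3, 5 osteoblast genes, 2 osteoclast genes and 312 of all genes were called higher in OVX. Of 18 T and NK cell genes, 4 were called higher in OVX with no covariate and 1 with muscle class as a term. Of 15 immediate early genes, 3 were called lower with no covariate and 1 with the term. Of 6 axon and neuron genes, 0 were called lower with no covariate and 2 with the term.

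The study named 8 hub genes from these same libraries, so their direction is no independent evidence. None was separated between muscle-rich and muscle-poor libraries, and their median difference was 0.07, with -0.17, -0.30 and -0.10 within Sham, OVX and OVX-AS-IV-High. Gfap, an intermediate filament of glia and Schwann cells, had 2.93, 2.92 and 24.9 CPM in Sham-1, Sham-2 and Sham-3, 2.01, 3.45 and 2.09 CPM in OVX-1, OVX-2 and OVX-3, and 1.21, 7.88 and 12.2 CPM in OVX-AS-IV-High-1, OVX-AS-IV-High-2 and OVX-AS-IV-High-3. Within each treatment group, each muscle-rich library was below each muscle-poor library. In edgeR Gfap was not called in OVX against Sham with no covariate (log2 fold change -2.06, SE 0.96) and was called with muscle class as a term (-1.97, SE 0.55), where its edgeR adjusted p was 0.144. It was also called by DESeq2 with no covariate (-2.06) and, in edgeR, with no filter on low counts (-2.06), with the log2 level of Acta1 as a term (-2.73), in the muscle-poor libraries alone (-3.19), without Sham-1 (-2.50), without Sham-2 (-2.49) and without OVX-AS-IV-High-1 (-2.06). Without Sham-3, the library with 24.9 CPM, its log2 fold change was -0.25 and it was not called. Set against OVX, OVX-AS-IV-High showed no call of Gfap in either fit (1.52 and 0.97), but it was called without Sham-3 (1.52), without OVX-AS-IV-High-1 (2.02) and in the muscle-poor libraries alone (1.88), and was 0.89 without OVX-AS-IV-High-3.

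Igfbp2, a binding protein of insulin-like growth factors, had 14.0, 22.1 and 19.5 CPM in Sham-1, Sham-2 and Sham-3, 0.359, 1.17 and 0.326 CPM in OVX-1, OVX-2 and OVX-3, and 15.7, 1.02 and 0.275 CPM in OVX-AS-IV-High-1, OVX-AS-IV-High-2 and OVX-AS-IV-High-3. High Igfbp2 after AS-IV was found only in the muscle-rich library of that group. Muscle-rich OVX-1 was low and muscle-poor Sham-3 high, so Igfbp2 did not follow muscle class in the other groups. Its log2 fold change in OVX-AS-IV-High against OVX was 3.25 (SE 1.24) with no covariate, which was called, and 2.43 (SE 1.25) with muscle class as a term, which was not. With the replicate number as a block it was 2.40 (SE 1.37), and with the log2 level of Acta1 as a term 2.44, neither of which was called. The call was also lost without OVX-1 (2.98), without OVX-3 (2.95) and without OVX-AS-IV-High-1 (0.11). In the muscle-poor libraries alone it was -0.16. Its fall in OVX against Sham was called in both fits, with -4.94 (SE 1.30) and -4.52 (SE 1.18).

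Lep, the fat hormone leptin, had 1.26, 2.09 and 1.93 CPM in the Sham libraries, 6.56, 19.9 and 5.52 CPM in the OVX libraries and 3.75, 5.25 and 6.27 CPM in the OVX-AS-IV-High libraries, in replicate order, and was called higher in OVX than in Sham in both fits (log2 fold change 2.56 and 2.31). Lep was not called in either fit in OVX-AS-IV-High against OVX (-1.03 with no covariate). It was called there with no filter on low counts (-1.01), by DESeq2 (-1.02), with the log2 level of Acta1 as a term (-1.06), without OVX-1 (-1.27) and without OVX-3 (-1.33), and was -0.21 without OVX-2. Ptgs2, cyclooxygenase 2, had 8.77, 6.39 and 8.76 CPM, 3.23, 2.47 and 3.78 CPM, and 13.6, 5.08 and 9.55 CPM in the same order. It was called in both comparisons and both fits, with -1.36 and -1.28 in OVX against Sham and 1.61 and 1.57 in OVX-AS-IV-High against OVX. Wnt10a and Wnt1, ligands of the Wnt pathway, were likewise called in both comparisons and both fits, at levels of at most 1.40 and 0.670 CPM in any library. The call of Wnt10a in OVX against Sham was lost without Sham-3 (-1.27) and without OVX-1 (-1.83). That of Wnt1 was lost without Sham-1 in OVX against Sham (-1.88), and without OVX-3 (2.14) or OVX-AS-IV-High-3 (1.88) in OVX-AS-IV-High against OVX. In the muscle-poor libraries alone Wnt1 was called in neither comparison (-2.27 and 2.18). Il22ra2, a decoy receptor for interleukin 22, was called lower in OVX than in Sham with no covariate (-1.09) and not with the term (-0.79), and that call was also lost without Sham-1 (-0.65), Sham-2 (-1.19), OVX-1 (-0.96), OVX-3 (-1.01) or OVX-AS-IV-High-2 (-1.09). It was likewise not called with the replicate number as a block (-0.96), with the log2 level of Acta1 as a term (-0.46) or in the muscle-poor libraries alone (-0.22). In OVX-AS-IV-High against OVX, Il22ra2 was called higher in both fits (1.18 and 1.06). That call was lost without OVX-1 (1.06), OVX-3 (1.11), OVX-AS-IV-High-1 (0.73) or OVX-AS-IV-High-2 (1.24) and in the muscle-poor libraries alone (0.60). Gzmb, granzyme B, had 6.16 CPM in Sham-2 and 7.26 CPM in OVX-AS-IV-High-2 and at most 1.10 CPM in the other libraries, and neither fit called it in either comparison. In OVX-AS-IV-High against OVX it was called without Sham-2 (2.68) and in the muscle-poor libraries alone (3.17), and its log2 fold change was 0.85 without OVX-AS-IV-High-2. With no covariate, 5 of the 8 were called lower when OVX was set against Sham, and 5 (Igfbp2, Ptgs2, Wnt10a, Wnt1 and Il22ra2) were called higher when OVX-AS-IV-High was set against OVX. The former count was 6 with DESeq2, with no filter on low counts and without OVX-AS-IV-High-1, where Gfap was called too. The latter count was 4 with the replicate number as a block, where Igfbp2 was not called. Without OVX-1 these counts were 3 and 3, and without OVX-3 they were 4 and 2.

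**Figure D5:**
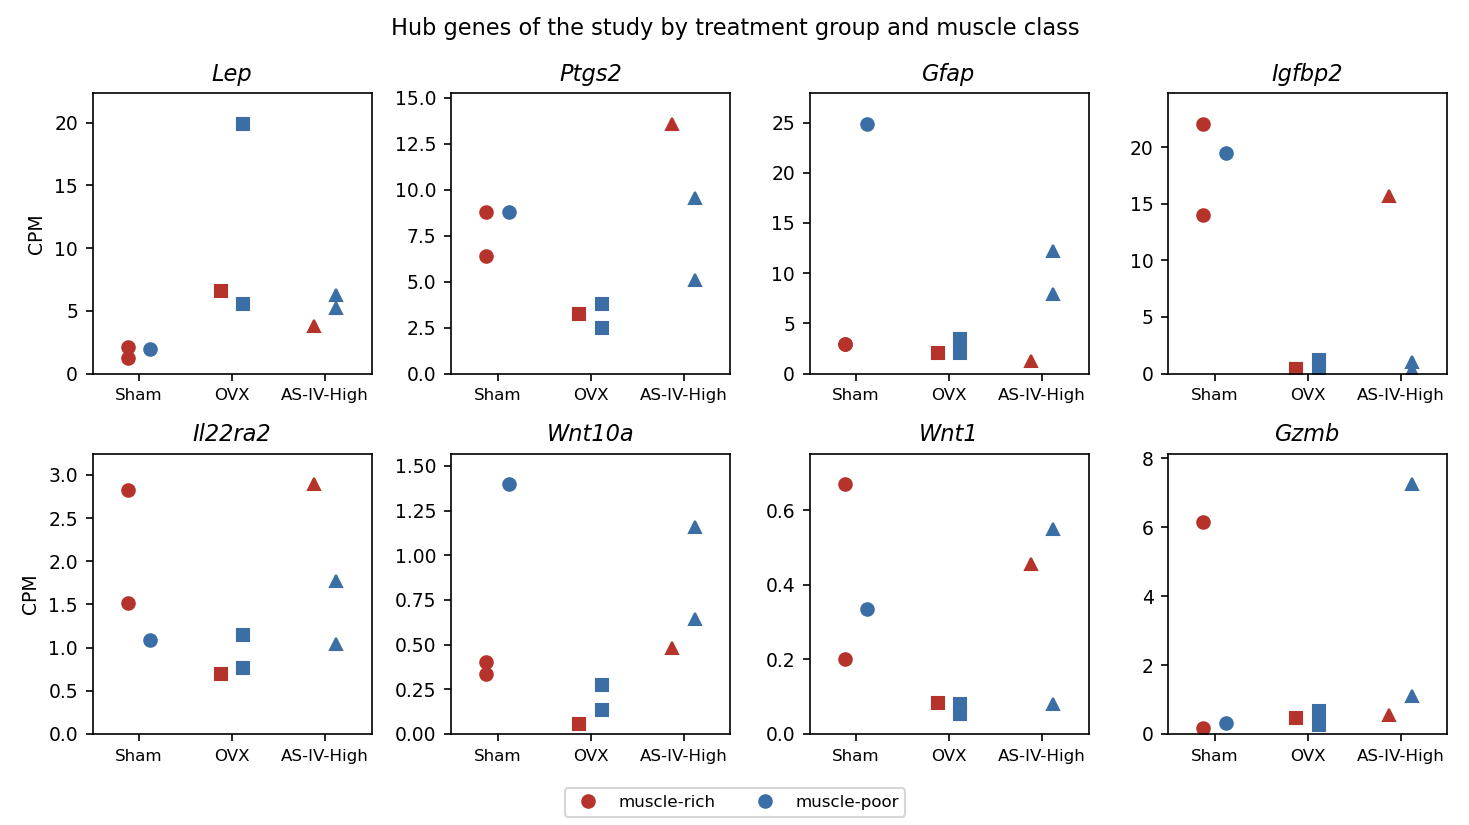
CPM of the 8 hub genes of the study by treatment group, with 1 point per library colored by muscle class and axes starting at 0. In OVX-AS-IV-High, Igfbp2 is 15.7 CPM in the muscle-rich library and at most 1.02 CPM in the muscle-poor libraries. In the muscle-poor Sham library Igfbp2 is 19.5 CPM and Gfap is 24.9 CPM.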

How the data were processed

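Bone RNA was measured in 9 libraries by strand-specific sequencing of poly(A) RNA. Per the paper's methods, the authors filtered reads with NGS QC Toolkit, aligned them with Tophat and Bowtie2, and estimated gene levels with eXpress. The submitters' notes name the build mRatBN7.2. The deposited gene count table holds whole numbers, and how eXpress estimates were rounded is not given in the sources used here. The authors also deposited FPKM values, whose ratio to the counts gave the same gene length in all libraries within 1% for 11928 of 11928 genes that had 100 or more counts everywhere. FPKM were used only for myosin shares and as an alternative.

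CPM were taken from column totals, and the muscle classes from Acta1 over 600 CPM. The classes and 25 gene lists were chosen with earlier results of these data known. Of 443 list entries 441 matched the table, 4 by a synonym. Genes had to pass edgeR's filterByExpr, which kept 16874 of 23026. Contractile genes were the 3 muscle lists and genes whose ontology terms name muscle, sarcomere parts or the prefix myo, a broad set of 1601 tested genes that also takes in genes such as Csf1r. Class differences are differences of mean log2(CPM + 0.5). Named genes were Acta1, Ckm, Mb, the 8 hub genes, up to 4 genes per list with the largest absolute difference and, outside contractile genes, the 10 largest differences each way at a mean of at least 10 CPM, with no overlap and the same direction in every treatment group. Other genes were named after their values were seen. Values of some list genes are not reported here.

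Group comparisons used edgeR 4.0.16 (TMM, quasi-likelihood F test) in R 4.3.3, with DESeq2 1.42.0 as an alternative. SE is the absolute log2 fold change over the square root of F. The scripts were tested on simulated data. Same-numbered OVX and OVX-AS-IV-High libraries deviated together from their group means (correlations across genes of 0.31, 0.16 and 0.13), so values with the replicate number as a block are given where they change a call. The main counts come from the fit without the block. Same-numbered libraries of these 2 groups also share muscle class, and OVX-2 correlated more with OVX-AS-IV-High-3 (0.18) than with OVX-AS-IV-High-2. Promoters are from RefSeq (GRCr8), with 347 of 438 list genes matched. Other tools were Python 3.11.15, numpy 2.4.6, pandas 2.3.3 and matplotlib 3.10.9.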

Additional observations from a re-analysis of the deposited data

Results flagged for a closer look

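Ckm, Mb and the 8 hub genes were checked within each muscle class for a library far from the others. Lep in OVX-2 was 19.9 CPM and Igfbp2 in Sham-3 was 19.5 CPM, both far above the other muscle-poor libraries. Gzmb stood far above the rest of its class in Sham-2, at 6.16 CPM, and in OVX-AS-IV-High-2, at 7.26 CPM. Of 20 sets of libraries checked, chance alone flags about 1 in 20, and the classes mix treatment groups.

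In 2 genes the treatment groups differed in opposite directions in the muscle-rich and the muscle-poor libraries, with no overlap in either class. Mb in OVX against Sham differed by -1.10 on the log2 scale in muscle-rich libraries, where OVX is a single library, and by 0.33 in muscle-poor libraries, where Sham is a single library. Gfap in OVX-AS-IV-High against OVX differed by -0.56 in muscle-rich libraries, a single library on each side, and by 1.69 in muscle-poor libraries. Neither difference between the classes was tested.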

How the results depend on the processing

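Of 1936 values of 121 named genes under the alternatives for muscle-rich against muscle-poor libraries, 1929 moved by less than 1 SD within the classes, and no gene that was separated by more than 1 changed direction. The count of genes outside contractile genes that were higher was 158 and became 87 with FPKM. The count of lower genes was 40 and became 15 with FPKM, 63 with a pseudocount of 0.1, 21 with a pseudocount of 1 and 84 within treatment groups. FPKM divides by length, so the same pseudocount weighs more on long genes. With 1 library left out the counts ran from 139 to 223 for higher and from 39 to 95 for lower genes, and the highest of both came without OVX-1.

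OVX against Sham called 525 genes, 791 with no filter on low counts and 379 to 1028 with 1 library left out, the highest without Sham-3. OVX-AS-IV-High against OVX called 140 genes, 274 with no filter, 265 in muscle-poor libraries only and 137 to 206 with 1 library left out. The cause was not tested, beyond the larger number of genes with no filter and the fewer libraries. Leaving out a library leaves groups of 2, and muscle-poor Sham is 1 library assumed to vary like the other groups. With the replicate block the counts were 705 and 153. Same-numbered Sham and OVX libraries had correlations of 0.20, -0.16 and 0.25 for replicates 1, 2 and 3. Sham-2 and OVX-2 differ in muscle class, so these values do not settle whether the numbers pair the libraries. In OVX-AS-IV-High against OVX, Igfbp2 was the only one of Acta1, Ckm, Mb and the 8 hub genes whose call the block changed.

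Some fold changes turned sign. In OVX against Sham, Gzmb was 0.60 in muscle-poor libraries only and -2.83 to 0.96 with 1 library left out (above 0 without Sham-2), Mb was 0.45 with Acta1 as a term and 0.31 in muscle-poor libraries only, and Ckm was 0.12 with Acta1 as a term. In OVX-AS-IV-High against OVX, Igfbp2 was -0.16 in muscle-poor libraries only. Acta1 was -0.16 with the replicate block, -0.33 in muscle-poor libraries only and -0.82 to 0.89 with 1 library left out (below 0 without OVX-AS-IV-High-1). Ckm was -0.12 with muscle class, -0.18 with Acta1 as a term, -0.33 with the replicate block, -0.44 in muscle-poor libraries only, and -0.76 to 0.64 with 1 library left out (below 0 without OVX-3 and without OVX-AS-IV-High-1). Mb was -0.12 with the replicate block, -0.15 in muscle-poor libraries only and -1.11 to 1.39 with 1 library left out (below 0 without OVX-AS-IV-High-1). The cause was not tested. With 4 and 5 libraries, low genes such as Wnt1 rest on few counts.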
